A study of Rattus norvegicus with 24 samples.

Results

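Kidneys of the ET3x2 congenic rat substrain were set against kidneys of the salt-sensitive S strain, probe set by probe set, on the Affymetrix arrays RAE230A and RAE230B. The members were the 4 ET3x2 pools, I to L, and the 4 S pools, A to D, by their strain labels; each pool was read on both arrays, so that 16 of the study's 24 arrays belonged to this comparison. All 31142 probe sets that are not array controls were considered, and 21799 passed a filter on low signal. S is the SS/Jr line of Dahl salt-sensitive rats, and ET3x2 and its companion ET3x1 are congenic substrains, in which a stretch of an otherwise S genome comes from a salt-resistant donor. All rats were males fed 0.4% NaCl until an age of 39 to 41 days, followed by 28 days of 2% NaCl. The left kidney was taken at 67 to 69 days, so that S rats, too, had been on the higher salt diet. An S pool held equal RNA amounts of 2 rats (8 rats in all), and an ET3x2 pool of 3 rats (12 rats), so that a pool averages more animals in ET3x2 than in S. The 4 ET3x1 pools, E to H, also of 3 rats each, entered the model to estimate the spread and are given only beside the ET3x2 values.

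S rats become hypertensive when they eat salt, and their kidneys handle sodium differently from those of salt-resistant strains. A congenic strain tests whether a chromosome segment carries a gene for such a trait, because outside the segment both strains should have the same alleles. From general knowledge of these strains, ET3 refers to the endothelin 3 gene, Edn3, at the distal end of rat chromosome 3. Endothelins act on vessels and on the tubule, where endothelin signalling in the collecting duct promotes sodium excretion. A gene that differs between the strains may lie inside the transferred segment or may be controlled from it, and expression alone does not separate these.

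The pools differed among themselves in ways the strain labels do not explain. The first principal component, with 31.3% (RAE230A) and 36.7% (RAE230B) of the variance, set A, B and J apart from the other pools. The same pools had the highest actin 5' minus 3' control signal on RAE230A, between -1.27 and -1.14, against -2.10 to -1.66 elsewhere, a control that falls as RNA becomes shorter. Its means were -1.61 ± 0.41 in S and -1.60 ± 0.31 in ET3x2 (SD, n = 4 pools each; exact permutation test, two-sided, p = 1.0). Above the 75th percentile of signal lay 6 of 6 proximal tubule, 2 of 4 thick limb and 2 of 4 podocyte markers. None of the marker lists held a called probe set. The filter kept 0 of 2 neutrophil and 1 of 4 liver genes on the arrays. It also kept 2 of 5 adipocyte and 3 of 3 red cell genes. Calls were therefore also made without each single pool and without A, B and J together.

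A small set of transcripts separated ET3x2 from S, and most of them were lower in ET3x2. At an adjusted p under 0.05 (limma, Benjamini-Hochberg within each array), a threshold that defines "called" here, 75 of 21799 probe sets passed, 0.344%. Of these, 61 were lower (0.28%) and 14 higher (0.0642%) in ET3x2. They stood for 39 named genes, 29 lower and 10 higher, and 36 called probe sets had no single gene symbol. The median size of a called difference was 0.60 on the log2 scale, and 6 probe sets differed by more than 1. The supplementary array RAE230B held 66 of the 75 calls (0.617% of its probe sets) and RAE230A 9 (0.081%). An unadjusted p under 0.05 was reached by 2369 probe sets, 10.9%. The pools of both strains did not overlap for 74 of the 75 called probe sets; over all probe sets this held for 1298 (5.95%), of which 843 were higher (3.87%) and 455 lower (2.09%) in ET3x2. The preponderance of lower calls was therefore not seen among all non-overlapping probe sets.

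**Figure D1:**
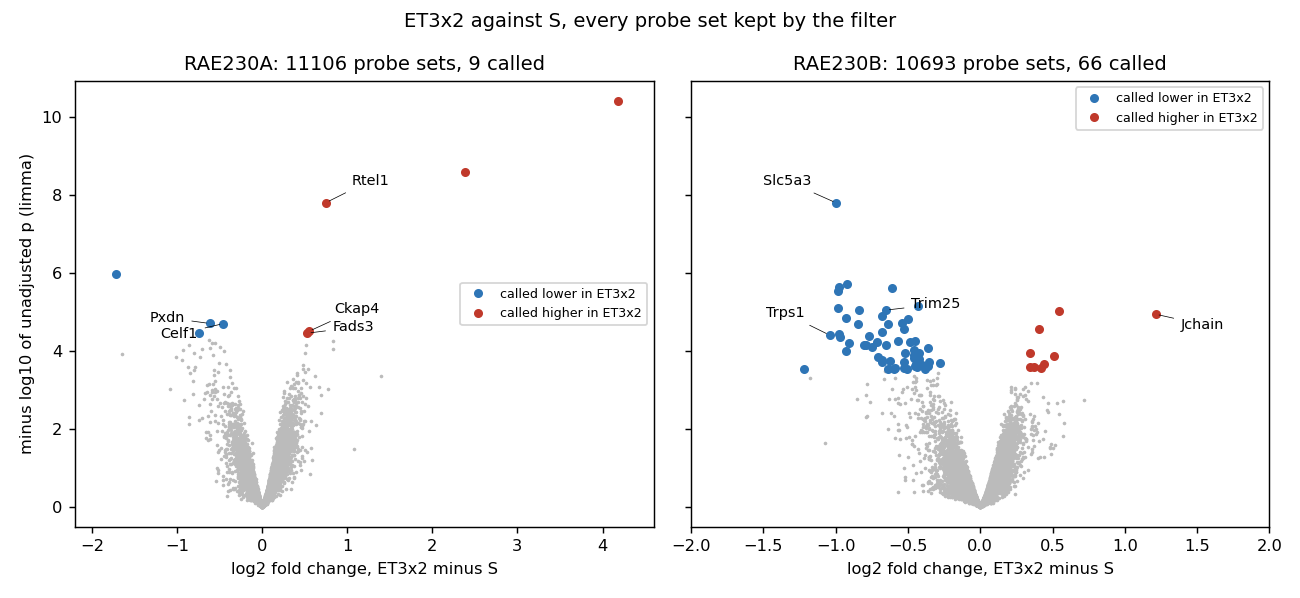
Log2 fold change, ET3x2 minus S, against minus log10 of the unadjusted p for each probe set kept by the filter, one panel per array; blue and red points are called lower and higher. RAE230A holds 9 called probe sets, the 2 at the far right without a gene symbol, and RAE230B holds 66, most of them on the lower side.

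The size of the called set rested on single pools. Leaving out pool A gave 19 calls, C 21, I 19, K 19, L 36 and the ET3x1 pool E 44, whereas leaving out D gave 167 and J 140. Without A, B and J together 17 remained past the threshold, 7 higher and 10 lower. Only C and D then remain in S, and I, K and L in ET3x2, so that fewer pools alone can end a call. Estimated array weights gave 419 calls, and the actin 5' minus 3' signal as a covariate gave 432. Of the 49 called probe sets named here, 13 kept their call without any single pool. The log2 fold change changed sign in 0 of 49 under any alternative. As the S and ET3x2 pools overlap in none of the 49, leaving out pools could not have turned the sign. No alternative in which they were tested ended the calls of Slc5a3, Trim25, Rtel1, 1376742_at, 1387902_a_at or 1388272_at. Leaving out pool A ended 34 of the 49 calls, C 32, I 33, K 33 and L 26. Leaving out A, B and J together ended 40 of the 49, with adjusted p from 0.0501 to 0.471. The 9 that passed without these 3 pools were Slc5a3, Rtel1, Trim25, Tmem87b, Entpd5, 1376742_at, 1384948_at, 1387902_a_at and 1388272_at.

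The called genes with known roles included the sodium-coupled inositol transporter Slc5a3 among the lower ones, and the antibody joining chain Jchain and the helicase Rtel1 among the higher ones. The 250 bases before the annotated start of these 3 genes, read from the RefSeq promoter table of GRCr8, are shown because they represent the lower calls, the immune calls and the call nearest to Edn3. Letters in capitals mark the GC box GGGCGG or its reverse complement, the only one of 4 motifs searched that matched.
Slc5a3: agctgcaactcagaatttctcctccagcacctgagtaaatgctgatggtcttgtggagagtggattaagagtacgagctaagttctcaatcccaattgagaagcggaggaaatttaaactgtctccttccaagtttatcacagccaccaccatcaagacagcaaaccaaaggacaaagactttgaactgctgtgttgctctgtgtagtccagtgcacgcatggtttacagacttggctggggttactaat
Jchain: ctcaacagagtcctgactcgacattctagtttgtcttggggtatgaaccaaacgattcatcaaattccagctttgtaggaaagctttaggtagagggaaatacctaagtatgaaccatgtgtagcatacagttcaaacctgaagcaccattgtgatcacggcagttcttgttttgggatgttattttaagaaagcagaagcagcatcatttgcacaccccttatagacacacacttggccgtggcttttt
Rtel1: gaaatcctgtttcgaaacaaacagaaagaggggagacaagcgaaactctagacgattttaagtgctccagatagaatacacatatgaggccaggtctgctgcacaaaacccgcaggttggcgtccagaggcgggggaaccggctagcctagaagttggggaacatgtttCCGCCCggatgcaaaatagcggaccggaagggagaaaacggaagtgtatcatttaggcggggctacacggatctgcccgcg
The Slc5a3 stretch lies at chr11:44799537-44799786, that of Jchain at chr14:19822726-19822975 and that of Rtel1 at chr3:188807748-188807997, each on the plus strand. Their GC content was 45.2%, 42.0% and 52.8%, against a median of 52.0% over 27457 rat promoters. The motifs, searched on both strands, were the E-box CACGTG, the tonicity element core TGGAAA, the GC box GGGCGG and the TATA box TATAAA; a match to one cannot lie inside a match to another. In the Rtel1 stretch the GC box read CCGCCC and began 81 bases before the start, and the other 2 stretches held 0 matches. Over the called lower genes, 21 of 29 had a promoter in the table, of which 1 held the E-box, 3 the tonicity core and 9 the GC box. Among the 10 called higher genes these counts were 1, 2 and 5. Over all promoters the shares were 5.79%, 19.5% and 32.4%, and 13.1% held the TATA box, which was in 0 of the 21 and 0 of the 10. A match is a description of letters and not of binding.

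Slc5a3 and the volume-regulated channel subunit Lrrc8b were the called transporters, and both were lower in ET3x2. Slc5a3 takes up myo-inositol together with sodium, an organic osmolyte that medullary cells gather when salt around them is high. Its probe set 1392349_at read 10.77, 10.47, 10.74 and 10.58 in S pools A to D and 9.67, 9.72, 9.48 and 9.71 in ET3x2 pools I to L. All ET3x2 pools lay below all S pools, with K lowest, and the ET3x1 pools stayed between 10.36 and 10.55. The difference was -0.99 (log2, SE 0.083, adjusted p = 0.000173, 0.502 of the S signal), and it ran from -1.05 to -0.94 over the alternatives. A second, dimmer Slc5a3 probe set, 1379066_at, read 7.35 to 7.48 in S and 7.40 to 7.52 in ET3x2, a difference of 0.04 (SE 0.051). Lrrc8b was lower by -0.53 (SE 0.108, adjusted p = 0.0486), but its call ended without any single pool other than B, with adjusted p up to 0.179.

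Of the 15 osmolyte and inositol genes kept by the filter, 1 was called (Slc5a3, lower; 0.196% of all genes were called, with 1 probe set a gene), 7 were positive and 8 negative, with a median of 0.00. At an unadjusted p under 0.01 there were 4, all lower, where 3.34% of all genes reached it and 1.25% on the lower side. Nfat5, the transcription factor that switches on osmolyte genes in hypertonic medium, read 10.77, 11.15, 11.23 and 11.24 in the S pools and 10.37, 10.38, 10.48 and 10.70 in the ET3x2 pools. These values did not overlap, although S pool A came within 0.07 of ET3x2 pool L, and the difference of -0.62 (SE 0.115) missed the threshold (adjusted p = 0.0523). The heat shock gene Hspa1a stood at -0.55 (adjusted p = 0.143) and the proton-coupled inositol transporter Slc2a13 at -0.44 (adjusted p = 0.272), both with overlapping pools. The other organic osmolyte carriers and enzymes of the list lay between -0.26 and 0.18.

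Transcription and chromatin proteins made 10 of the called genes, and all 10 were lower in ET3x2, by -1.04 to -0.43. Enzymes and genes of no other group also made 10, of which 5 were lower and 5 higher. Roles were assigned after the calls were known, so this is a count and not a test, and beside it 29 of 39 called genes were lower. Trps1, a GATA-type zinc finger repressor, read 9.62, 9.12, 9.45 and 9.41 in S and 8.39, 8.71, 8.26 and 8.07 in ET3x2. The lowest S pool, B, was 0.41 above the highest ET3x2 pool, J, and the difference was -1.04 (SE 0.173, adjusted p = 0.0193). A second Trps1 probe set stood at -0.67 without overlap and missed the threshold (adjusted p = 0.0748). The chromodomain protein gene Mphosph8, of a complex that silences repeats, read 8.0, 7.89, 8.14 and 8.06 in S and 7.37, 7.10, 6.56 and 7.35 in ET3x2. Pool K was far below the other ET3x2 pools here, and the difference of -0.93 (SE 0.140, adjusted p = 0.0120) lost its call without pool C (adjusted p = 0.0548). The 2 other Mphosph8 probe sets overlapped between strains, the brighter one at 8.79 to 9.52 in S and 8.91 to 9.01 in ET3x2. Ubn2, a subunit of the chaperone that deposits the histone variant H3.3, read 8.83, 8.50, 9.03 and 8.69 in S and 8.20, 7.87, 7.74 and 7.88 in ET3x2. Its difference was -0.84 (SE 0.121, adjusted p = 0.0104), and no single pool ended this call, which did end without A, B and J (0.0501).

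Mef2a, a MADS-box activator of muscle and stress genes, showed the tightest ET3x2 group among these. It read 9.50, 9.23, 9.23 and 9.20 in S and 8.66, 8.69, 8.69 and 8.69 in ET3x2. The difference was -0.61 (SE 0.0778, adjusted p = 0.00612), past the threshold without any single pool but not without A, B and J (0.0501). ET3x1 lay at 9.49 to 9.79, with a mean above that of S. A second Mef2a probe set, 1393290_at, stood at -0.44 with no overlap (adjusted p = 0.0748). Sp1, the zinc finger activator that binds GC boxes, read 8.65, 8.22, 8.64 and 8.54 in S and 7.66, 7.89, 7.57 and 7.77 in ET3x2 on 1392180_at. That difference was -0.79 (SE 0.140, adjusted p = 0.0246), whereas 3 further Sp1 probe sets stood at -0.02, -0.05 and 0.13 with overlapping pools. Kmt2c, a histone H3 lysine methyltransferase of enhancers, read 8.46, 8.22, 8.54 and 8.04 in S and 7.59, 7.76, 7.53 and 7.68 in ET3x2. Its difference was -0.68 (SE 0.111, adjusted p = 0.0179).

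Both BTB zinc finger genes, Zbtb20 and Zbtb41, were dim in ET3x2, with means of 6.31 and 6.84 under the RAE230B filter level of 6.85, and a difference down to so low a signal has no sure size. Zbtb20 read 7.60, 6.99, 7.58 and 6.80 in S and 6.28, 6.22, 6.50 and 6.24 in ET3x2 (-0.93, adjusted p = 0.0296). A second and much brighter Zbtb20 probe set, 1379578_at, differed by -0.17 with overlap. Zbtb41 read 7.74, 7.39, 8.13 and 7.49 in S and 6.80, 6.85, 6.78 and 6.93 in ET3x2 (-0.85, adjusted p = 0.0134). The remaining 2 were the E-box repressor Zeb2 at -0.68 (adjusted p = 0.0435) and Arid3a, which binds AT-rich DNA, at -0.43 (adjusted p = 0.0486). Further probe sets of both genes overlapped between strains, with differences up to 0.08 for Zeb2 and of -0.04 for Arid3a. Single pools ended most of these calls. Trps1 and Sp1 lost theirs without A, C, I, K or L (adjusted p up to 0.0838 and 0.119), Kmt2c without A, C, I or K (0.0821), Zbtb20 without A, C, I, J, K or L (0.107) and Zbtb41 without A, I or K (0.0656). Zeb2 lost it without any of 8 pools (0.177) and Arid3a without any of 11 (0.196). All 10 were past it no longer without A, B and J, with adjusted p from 0.0501 for Trps1, Ubn2, Mef2a, Zbtb41 and Arid3a to 0.461 for Zeb2.

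**Figure D2:**
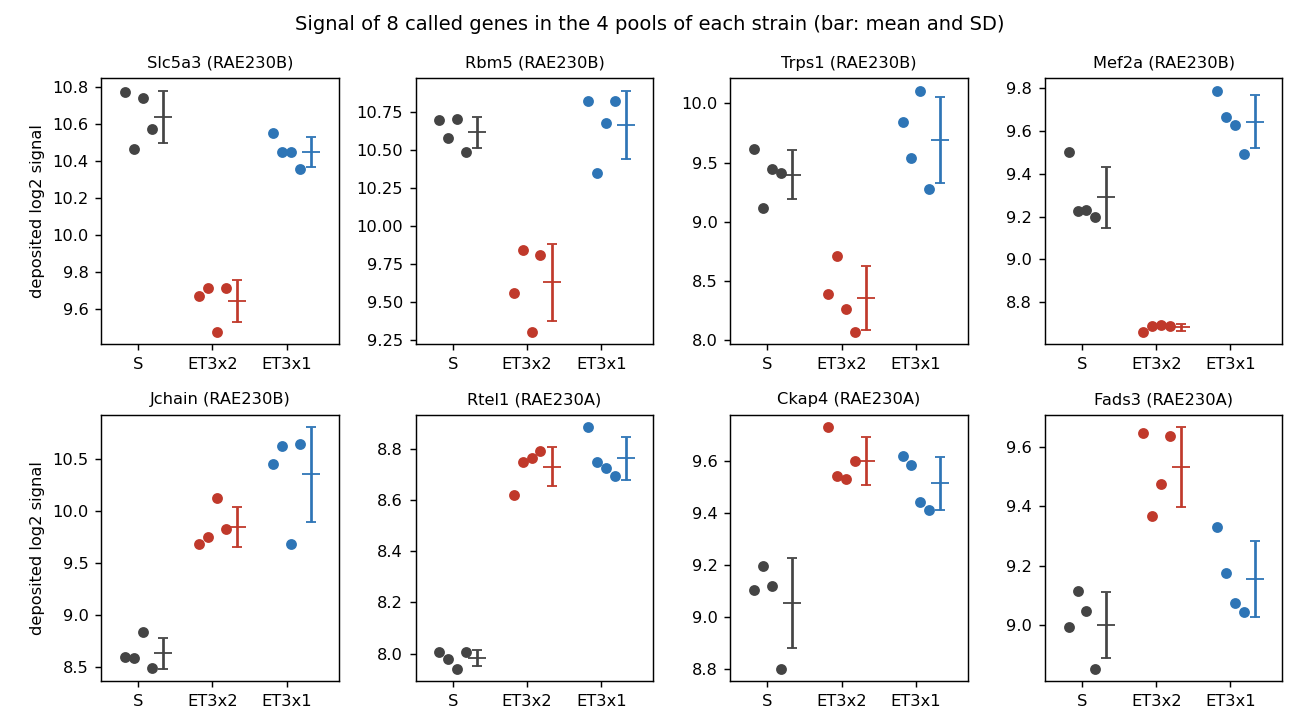
Deposited log2 signal of 8 called genes in the 4 S, 4 ET3x2 and 4 ET3x1 pools, with the mean and SD of each group beside the points; each panel has its own axis. Slc5a3, Rbm5, Trps1 and Mef2a lie lower in every ET3x2 pool than in any S pool, and Jchain, Rtel1, Ckap4 and Fads3 higher; for Jchain, Rtel1 and Ckap4 the ET3x1 pools lie above S too.

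The 4 called genes of RNA binding and processing were lower as well. Rbm5, which steers splice site choice in apoptosis genes, read 10.70, 10.58, 10.70 and 10.49 in S and 9.56, 9.85, 9.30 and 9.81 in ET3x2 on 1382749_at. The gap between the groups was 0.64, and the difference was -0.99 (SE 0.128, adjusted p = 0.00612), with every single-pool fit past the threshold and 0.0501 without A, B and J. A brighter Rbm5 probe set on RAE230A, 1372251_at, was also lower in every ET3x2 pool, by -0.38 (adjusted p = 0.0943). Rbms3, which binds AU-rich 3' ends, read 10.43, 10.03, 10.61 and 10.42 in S and 9.49, 9.67, 9.33 and 9.90 in ET3x2 on 1383069_at. This made -0.77 (SE 0.129, adjusted p = 0.020, up to 0.0821 without A, C, I or K), against 0.01 on a second, dim Rbms3 probe set. The poly(A) polymerase gene Papola differed by -0.46 (adjusted p = 0.0293) and the splicing and decay factor Celf1 by -0.46 (adjusted p = 0.0374). A further 4 Celf1 probe sets had the same sign without being called, with differences as small as -0.0. Papola lost its call without A, C, E, I, K or L and Celf1 without A, B, C, E, I, K or L, with adjusted p up to 0.109 and 0.197.

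Splicing and RNA-binding genes were also counted as a list. Of 46 kept, 1 was called (lower; 0.196% of all genes), 35 were negative and 11 positive, and the median was -0.13, against 4284 negative of 11218 genes and a median of 0.03 over all genes. An unadjusted p under 0.01 was met by 5, all lower (1.25% of all genes), among them Srrm2, a core component of nuclear speckles, at -0.86 (adjusted p = 0.0523), and the splicing kinase Clk1 at -0.59 (adjusted p = 0.155). Srrm2 read 11.23, 11.18, 10.90 and 10.47 in S, 10.20, 10.20, 9.75 and 10.21 in ET3x2, and 11.54 to 11.95 in ET3x1, the highest of the 3 strains. Chromatin proteins had 35 of 47 genes negative with a median of -0.06, and transcription factors 26 of 38 with a median of -0.11. Those lists held 1 and 2 called genes, Ubn2 in the first and Trps1 and Zbtb41 in the second, all lower, where 0.196% of all genes were called. The demethylase gene Tet2 (-0.79, adjusted p = 0.0890) and the zinc finger factor Klf6 (-0.62, adjusted p = 0.0523) were lower in every ET3x2 pool without being called. The mean of the splicing list relative to all pools was 0.200, 0.170, 0.058 and -0.205 in S pools A to D and -0.181, -0.064, -0.150 and -0.046 in ET3x2 pools I to L. S pool D thus lay below every ET3x2 pool, and A and B, with the highest actin 5' minus 3' signal in S, lay highest; the part of RNA length in this was not tested for the list. The transcription factor median became 0.018 once A, B and J were left out.

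Ubiquitin and membrane traffic genes made 7 calls, 6 lower and 1 higher. Trim25, a ubiquitin ligase of antiviral RNA sensing, read 10.09, 9.94, 10.20 and 10.31 in S and 9.60, 9.50, 9.41 and 9.41 in ET3x2. The difference of -0.65 (SE 0.0939, adjusted p = 0.0104) stayed past the threshold in all alternatives, with adjusted p up to 0.0493. The deubiquitinase gene Usp33 read 9.20, 9.09, 8.86 and 8.83 in S and 8.08, 8.35, 8.13 and 8.57 in ET3x2 (-0.71, adjusted p = 0.0232, up to 0.109 without A, B, C, I or K). Tmem87b, which codes for a Golgi membrane protein, read 9.78, 9.64, 9.81 and 9.70 in S and 9.12, 9.34, 8.73 and 9.03 in ET3x2. Its difference was -0.68 (SE 0.101, adjusted p = 0.0115), and only leaving out pool C ended the call (adjusted p = 0.0512). Smaller were the microtubule adaptor Hook3 at -0.52 (adjusted p = 0.0321), the kelch protein Klhl24 at -0.38 (0.0486) and the autophagy initiator Rb1cc1 at -0.36 (0.0275). Rnf126, a ubiquitin ligase of protein quality control, was higher by 0.37 (adjusted p = 0.0486). These 4 calls ended without 6, 9, 4 and 11 of the 12 pools, among them A, C, I and K for each, with adjusted p up to 0.150, 0.222, 0.130 and 0.193, and without A, B and J at 0.301, 0.192, 0.175 and 0.471.

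Among the enzyme genes, Entpd5 showed the greatest difference. It codes for a nucleotidase of the endoplasmic reticulum that aids glycoprotein folding, and 1382434_at read 11.28, 10.70, 10.94 and 10.77 in S and 10.001, 10.43, 9.67 and 9.69 in ET3x2. ET3x2 pool J was closest to S, at 0.27 below S pool B, and the difference was -0.98 (SE 0.161, adjusted p = 0.0193, up to 0.0821 without A, C, I, K or L). A brighter Entpd5 probe set on RAE230A, 1372774_at, gave 0.08 (SE 0.104). Dut, which removes dUTP so that it is not built into DNA, read 8.51, 8.43, 8.31 and 8.29 in S and 7.94, 7.77, 7.96 and 7.86 in ET3x2. Its difference of -0.50 (SE 0.0762, adjusted p = 0.0120) ended among single pools only without A (adjusted p = 0.0528), and also without A, B and J (0.192), and a second Dut probe set gave -0.075. The other lower enzyme and unclassified genes were S100pbp at -0.44, Pcmtd1 at -0.40 and Bckdha, a subunit of the branched-chain keto acid dehydrogenase, at -0.28, with adjusted p of 0.0455, 0.0473 and 0.0448. Pxdn, the peroxidasin that crosslinks collagen IV, was lower by -0.62 (adjusted p = 0.0374) and the guidance receptor Sema6a by -0.49 (0.0235), with an ET3x2 mean of Sema6a under the filter level. Of these 5 calls none survived leaving out A, C, I or K, and the highest adjusted p was 0.197; without A, B and J it was highest for Bckdha, at 0.471.

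The higher genes were led by Jchain, the joining chain of polymeric antibodies made by plasma cells. It read 8.60, 8.59, 8.84 and 8.50 in S and 9.69, 9.76, 10.12 and 9.82 in ET3x2 on 1383163_at. Every ET3x2 pool was at least 0.84 above every S pool, and the difference was 1.21 (SE 0.179, 2.32-fold, adjusted p = 0.0112, up to 0.0496 on leaving out a pool and 0.118 without A, B and J). A second Jchain probe set read 7.96 to 8.08 in S and 8.17 to 8.47 in ET3x2 (0.35, adjusted p = 0.0880). In whole-kidney RNA, more cells of a type and more RNA per cell cannot be told apart. Rhoh, a small GTPase of blood cells needed for T cell receptor signalling, read 7.74, 7.63, 7.78 and 7.77 in S and 8.05, 8.06, 8.09 and 8.10 in ET3x2. The ET3x2 pools spanned 0.05, and the difference was 0.34 (SE 0.0637, adjusted p = 0.0321), which ended without A, B, C, E, I, J, K or L (up to 0.141).

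T and natural killer cell genes other than Rhoh lay mostly on the same side without being called, whereas plasma and B cell genes were divided. Of 15 T and natural killer cell genes kept, 14 were positive and 1 negative, 1 was called (Rhoh; 0.196% of all genes), and the median was 0.12, against 0.03 over all genes and 6934 positive of 11218. An unadjusted p under 0.01 was met by 6, all higher (2.09% of all genes), among them the chemokine Ccl5 at 0.52 (adjusted p = 0.173), the chemokine receptor Cxcr3 at 0.30 (0.201) and the cytotoxic granule gene Nkg7 at 0.36 (0.220). The list's mean relative to all pools, with Rhoh in it, was -0.139, -0.103, -0.084 and -0.053 in the S pools. It was 0.102, 0.019, 0.131 and 0.050 in the ET3x2 pools, so that the groups did not overlap. Among 7 plasma and B cell genes 4 were positive, the called Jchain among them, and 3 negative. Their median of 0.12 was 0.005 without pool D, and the plasma cell receptor Tnfrsf17 stood at 0.31 (adjusted p = 0.252). Of 21 macrophage and myeloid genes 16 were positive and 0 called, with a median of 0.08; the invariant chain Cd74 was at 0.24 (adjusted p = 0.203).

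Rtel1, a helicase that unwinds telomere loops and lies beyond Edn3 on chromosome 3, had the smallest p among named genes on RAE230A. It read 8.01, 7.98, 7.94 and 8.01 in S and 8.62, 8.75, 8.76 and 8.79 in ET3x2, with a range of 0.07 in S. The difference was 0.75 (SE 0.067, 1.68-fold, adjusted p = 5.86e-05), and it stayed between 0.73 and 0.79 in all alternatives. A second Rtel1 probe set on RAE230B, 1391964_at, gave 0.12 with overlapping pools. Of mitochondrial genes, the complex III assembly factor Uqcc6 was higher by 0.51 (adjusted p = 0.0362) and the inner membrane protein Mpv17 by 0.42 (0.0486). The small membrane protein gene Smim1 read 9.79, 9.80, 9.92 and 9.95 in S and 10.31, 10.18, 10.29 and 10.31 in ET3x2 (0.41, SE 0.0656, adjusted p = 0.0154). Ckap4, a protein of endoplasmic reticulum sheets, was higher by 0.55 (adjusted p = 0.0438), the desaturase family gene Fads3 by 0.53 (0.0438) and the sialic acid lyase gene Npl by 0.44 (0.0455). The calls of Uqcc6, Mpv17, Smim1, Ckap4, Fads3 and Npl each ended without pool A, I, K or L, and all but that of Smim1 without B as well, with adjusted p up to 0.197. The respiratory chain list had 39 of 46 genes positive, a median of 0.15 and 1 call, Uqcc6, against 6934 of 11218 positive and 0.196% called over all genes. Its ET3x1 median against the same S pools was 0.13. Its mean was lowest in pool B (-0.246), followed by A (-0.162) and J (-0.104), the 3 pools with the highest actin 5' minus 3' signal; the part of RNA length in it was not tested for the list.

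**Figure D3:**
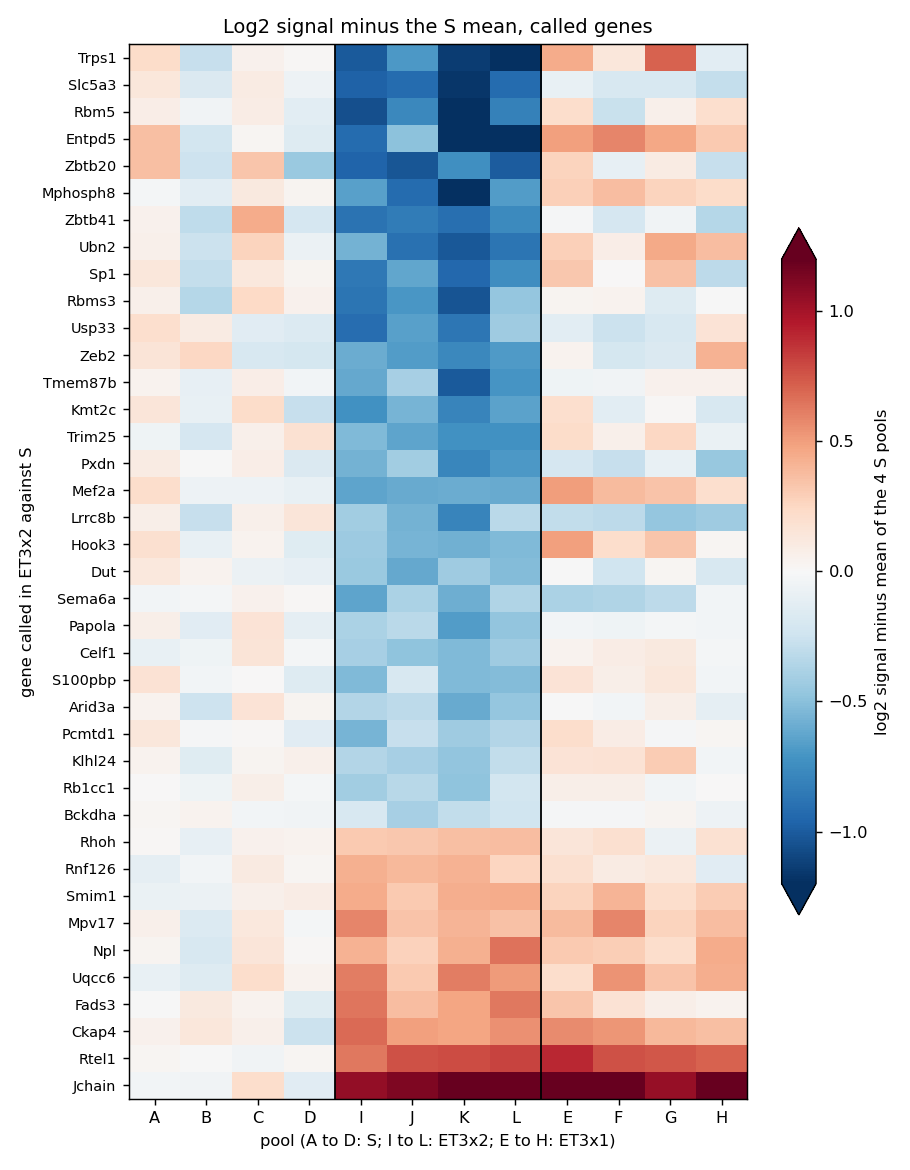
Log2 signal of each of the 39 called genes minus the mean of the 4 S pools, 1 column per pool in the order S, ET3x2, ET3x1, with colours saturating at 1.2 in either direction. The 29 lower genes are blue in all 4 ET3x2 pools, most deeply in pool K, and mostly pale in ET3x1, whereas the 10 higher genes are red in ET3x2 and, for most, in ET3x1.

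Within ET3x2, pool K lay farthest from S for the lower probe sets. It was the lowest ET3x2 pool in 41 of 61, and its median distance from the S mean was -0.75, against -0.60 in I, -0.54 in J and -0.53 in L. In S, pool A was the highest in 23 and C in 22, and D the lowest in 30. For the 14 higher probe sets pool I was farthest, with a median of 0.63, and J nearest, with 0.38.

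The lower and the higher calls differed in how ET3x1 stood, where both comparisons share the S pools. For the 61 lower probe sets the median ET3x1 minus S difference was -0.01, with 27 positive and 34 negative, and 1 was called against S (0.44% of all probe sets were). That one, 1377774_at, was higher in ET3x1 (1.12, adjusted p = 0.000594), opposite to its -0.59 in ET3x2. Setting ET3x2 against ET3x1 directly, 51 of the 61 were called; over all probe sets 1.48% were called, and 1.39% called lower, in that contrast, which shares the ET3x2 pools on which the 61 were chosen. Slc5a3 was among the 51 (-0.81, adjusted p = 0.000178). For the 14 higher probe sets the median in ET3x1 minus S was 0.39, all 14 were positive, 5 were called, and 0 were called between ET3x2 and ET3x1. Rtel1 stood at 0.75 in ET3x2 and 0.78 in ET3x1, and Jchain at 1.21 and 1.72.

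The largest fitted differences were in probe sets that carry no single gene symbol. On RAE230A 1388272_at read 7.17, 7.19, 7.75 and 7.81 in S and 11.13, 11.87, 12.15 and 11.50 in ET3x2, a fitted log2 difference of 4.18 (SE 0.241, adjusted p = 4.41e-07). With an S mean of 7.48, below the filter at 7.52, this difference has no sure size. Its neighbour in size, 1387902_a_at, read 10.59, 10.19, 11.12 and 10.62 in S and 12.76, 12.74, 13.45 and 13.12 in ET3x2 (2.39, SE 0.186, 5.23-fold, adjusted p = 1.42e-05). Both were also high in all ET3x1 pools, at 11.74 to 12.73 and 13.31 to 13.77.

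Lower by the most was 1376742_at, at 10.19, 10.13, 9.81 and 9.31 in S and 7.96, 8.56, 7.65 and 8.40 in ET3x2 (-1.72, SE 0.215, adjusted p = 0.00294). Next came 1384948_at, at 10.04, 9.24, 9.37 and 9.07 in S and 8.02, 9.05, 7.69 and 8.08 in ET3x2, where pool J was almost at S pool D. Its difference of -1.22 (adjusted p = 0.0489) ended without any of 10 pools, A, B, C, E, F, G, H, I, K and L, with adjusted p up to 0.205. The probe set 1384692_at read 10.38, 9.97, 10.37 and 9.95 in S and 9.04, 9.39, 8.91 and 9.40 in ET3x2 (-0.98, adjusted p = 0.0104). 1394585_at read 9.28, 9.34, 9.25 and 9.01 in S and 8.03, 8.17, 8.19 and 8.58 in ET3x2 (-0.98, adjusted p = 0.00612). Neither overlapped between strains nor lost its call on leaving out a single pool, but both lost it without A, B and J (0.0501 and 0.103).

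A further 4 of these were lower by -0.97 to -0.81. 1383615_a_at read 9.72, 9.34, 9.77 and 9.48 in S and 8.73, 8.65, 8.13 and 8.91 in ET3x2 (adjusted p = 0.020), and in ET3x1 it was above S, at 9.96 to 10.54. 1381471_at read 7.67, 7.63, 7.49 and 7.49 in S and 6.56, 6.71, 6.55 and 6.77 in ET3x2 (adjusted p = 0.00612), where its mean was under the filter level. 1392653_at read 10.57, 10.37, 10.59 and 10.60 in S and 9.77, 9.84, 9.13 and 9.74 in ET3x2 (adjusted p = 0.0236). Here K was far below I, J and L. 1379398_at read 9.56, 9.13, 9.64 and 9.45 in S and 8.74, 8.69, 8.51 and 8.62 in ET3x2 (adjusted p = 0.0246). Of the 4, only 1381471_at kept its call without any single pool, though not without A, B and J (0.0764); the others ended without A, C, I or K, and the last pair also without L, with adjusted p up to 0.117.

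Many called genes had a further probe set that did not pass, and for several of them it is not given above. Of the 39 genes, 27 had other kept probe sets, 41 in all, and in 0 of the 27 did every probe set pass. The sign was the same in 32 of the 41 and opposite in 9, which belonged to 8 genes. Probe sets of a gene can read different transcript ends, and as they share the pools they are not replicates.

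Genes of chromosome 3 were looked at because the congenic segment is expected there. Of 858 chromosome 3 genes kept, 5 were called (0.583%, against 0.348% of all genes by any probe set), Rtel1 higher and Celf1, Dut, Tmem87b and Zeb2 lower. In the order of protein-coding genes of GRCr8, Rtel1 lay 63 genes after Edn3, while Tmem87b lay 529, Dut 579, Celf1 883 and Zeb2 1344 genes before it. Within 87 genes on each side of Edn3, 141 probe sets of 97 genes were kept, of which 1 was called, 91 were positive and 50 negative, with a median of 0.03. Besides Rtel1, an unadjusted p under 0.01 was met by 7 of these probe sets, 8 in all, where 3.37% of all probe sets reached it. They were the proteasome subunit Psma7 at 0.44 (adjusted p = 0.140), Ppdpf at 0.43 (0.160), the aminopeptidase Npepl1 at 0.32 (0.237) the growth factor Bmp7 at 0.28 (0.283), the dicarboxylate transporter Slc13a3 at 0.27 (0.272), the chaperone Dnajc5 at 0.24 (0.268) and, on the lower side, the endosomal GTPase Rab22a at -0.28 (0.292). Psma7 read 8.61, 9.08, 8.92 and 8.88 in S and 9.29, 9.12, 9.20 and 9.61 in ET3x2, without overlap, whereas a brighter Psma7 probe set on RAE230A stood at 0.06 (SE 0.087, adjusted p = 0.834) with overlap. The largest share of called genes was on chromosome 11, with 3 of 295 (1.02%), Slc5a3, Zbtb20 and Klhl24, all lower. How far the donor segment reaches is not given in the labels used here.

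**Figure D4:**
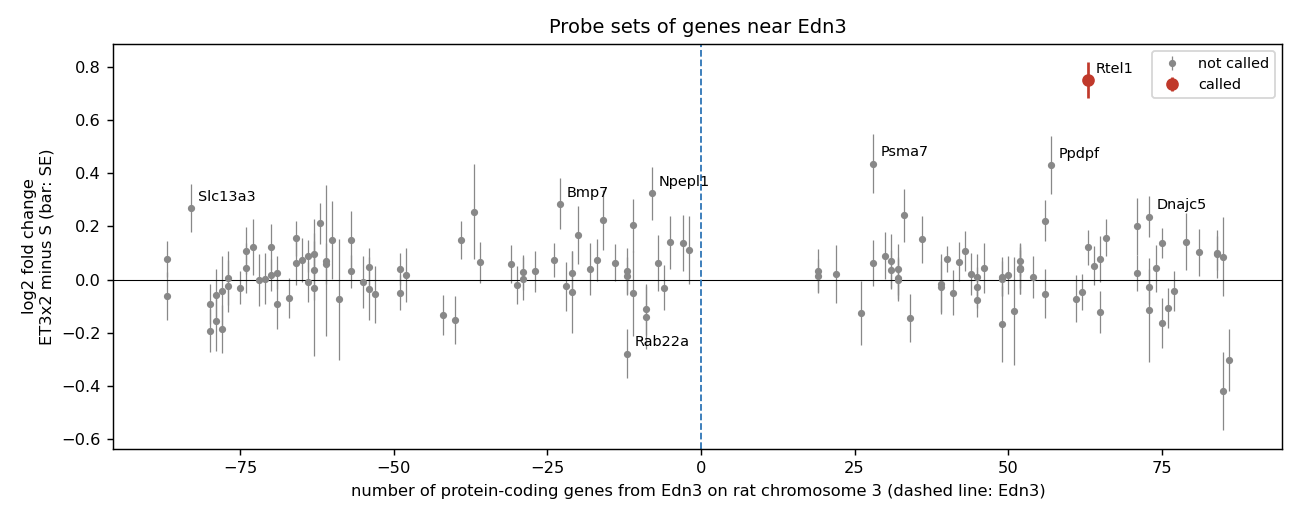
Log2 fold change, ET3x2 minus S, with its SE, of each kept probe set of the genes up to 87 protein-coding genes before or after Edn3, in gene order; red marks a called probe set and names mark those with an unadjusted p under 0.01. Rtel1, 63 genes after Edn3, stands at 0.75, and the median of all points is 0.03.

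No gene of the endothelin, renin-angiotensin, mineralocorticoid or distal salt transport lists was called. In the endothelin system 4 of 8 genes were kept, 0 were called, and the neutral endopeptidase Mme, which degrades endothelin and natriuretic peptides, was at -0.34 (adjusted p = 0.192). The converting enzyme genes Ece1 and Ece2 stood at 0.09 and 0.14 and the ligand Edn2 at -0.01, and Edn1 lay under the filter level. Only 5 of the 8 genes had a probe set with 1 symbol. Edn3, Ednra and Ednrb had none and were not analysed here, so nothing can be said of their expression. Of 8 renin-angiotensin genes 0 were called and 4 were positive. Angiotensinogen, Agt, read 10.01, 9.61, 9.52 and 8.98 in S and 9.48, 9.69, 9.46 and 9.23 in ET3x2, fully overlapping (-0.07, SE 0.198). Its sign turned without pool A (0.094) or L (0.014), and that of Ace (0.01) turned without D (-0.027) or L (-0.007) and with quantile normalisation (-0.004).

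Of 16 genes of the thick limb and distal tubule 8 were positive and 8 negative, with a median of 0.00. Slc12a1, the furosemide-sensitive cotransporter of the thick limb, read 11.07, 11.20, 11.02 and 10.71 in S and 10.56, 10.78, 10.54 and 10.57 in ET3x2. The difference was -0.39 (SE 0.106) and missed the threshold (adjusted p = 0.192), with S pool D inside the ET3x2 range. Slc12a3, the thiazide-sensitive cotransporter of the distal tubule, stood at 0.28 (adjusted p = 0.334), all ET3x2 pools above all S pools. The 14 genes of the mineralocorticoid response had a median of -0.03, and the 15 of proximal tubule transport a median of 0.06 with 10 positive.

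No clock gene was called, and S pool A stood far above the rest for several. Of 19 kept, 14 were negative, 0 were called, and the median was -0.21, which became -0.042 once A, B and J were left out. Nr1d2, a nuclear receptor that represses clock genes, read 10.54, 9.76, 9.95 and 9.44 in S and 9.09, 9.26, 9.18 and 9.43 in ET3x2 (-0.68, SE 0.178, adjusted p = 0.174). S pool D was within 0.02 of ET3x2 pool L. On a second Nr1d2 probe set, 1370541_at, the ET3x2 pools (8.44 to 8.97) lay inside the S range (8.08 to 9.97). At an unadjusted p under 0.01, Nr1d2 was the 1 lower member (1.25% of all genes) and Npas2 the 1 higher (2.09%). Npas2 read 6.99 to 7.27 in S and 7.35 to 7.48 in ET3x2, without overlap and without being called. Dbp, a clock output factor, was highest in pool A at 10.09, against 8.79 to 9.25 in S pools B to D and 8.72 to 8.78 in ET3x2. The E-box CACGTG was in 4 of 17 clock gene promoters and the tonicity core TGGAAA in 2 of 12 osmolyte gene promoters. The hour of day at which kidneys were taken is not in the labels used here, and its part was not tested.

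**Figure D5:**
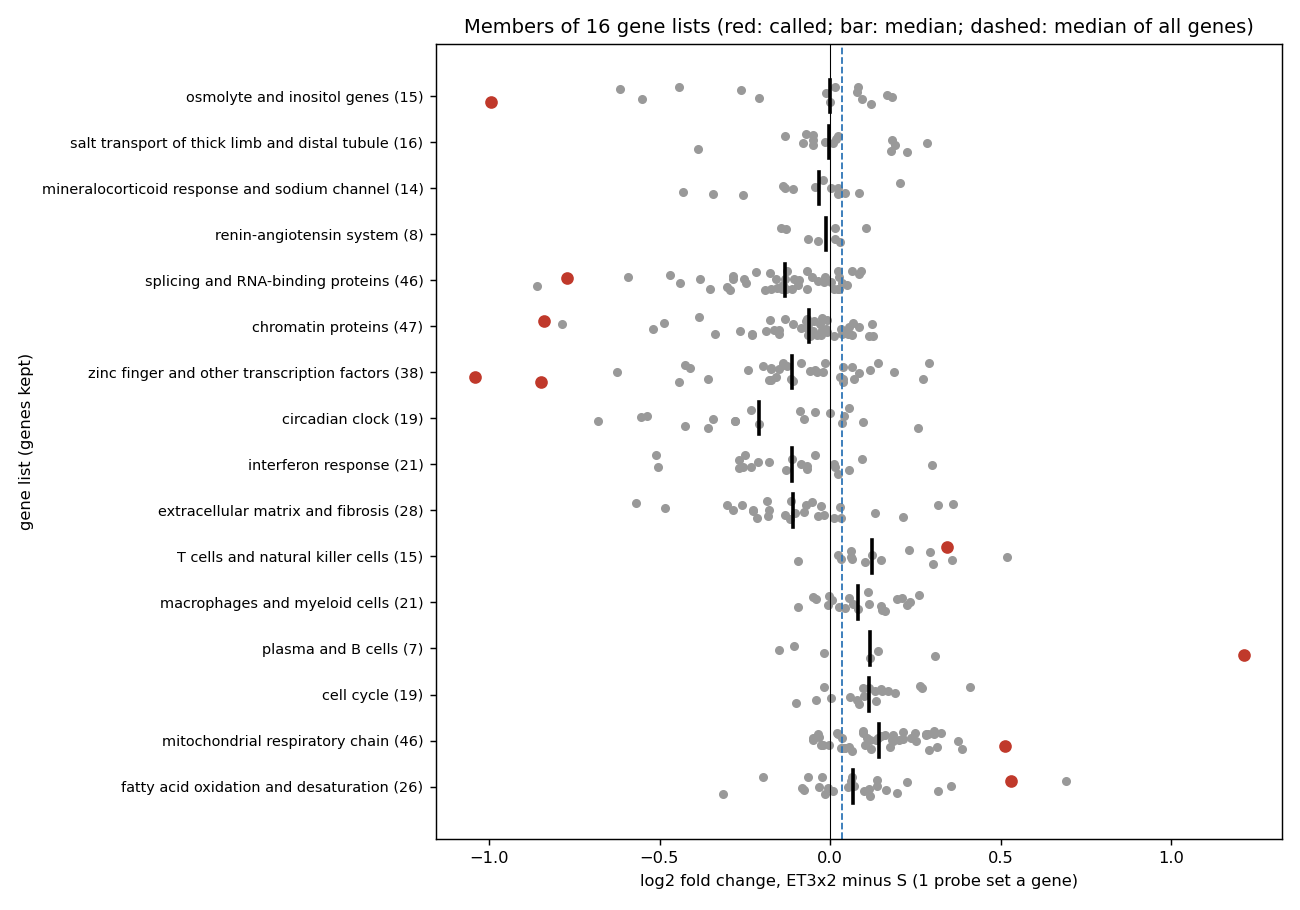
Log2 fold change, ET3x2 minus S, of each kept gene of 16 gene lists, 1 probe set a gene, with red points for called genes, black bars for list medians and a dashed line at the median of all genes (0.03). The splicing and clock lists have medians of -0.13 and -0.21, and the respiratory chain and T cell lists medians of 0.15 and 0.12.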

How the data were processed

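The authors deposited 1 table per array with 1 value per probe set and pool, which were taken as log2 signal from their range (4.97 to 15.24 on RAE230A, 4.10 to 13.49 on RAE230B). Per the labels' protocols, kidney RNA was pooled, reverse transcribed from oligo(dT) and labelled with biotin; summarisation, background correction and normalisation are not given in the sources used here. On each array, 57 control probe sets, and those others with a mean under the 30th percentile (7.52 and 6.85) were left out. Each array was fitted with limma 3.58.1 in R 4.3.3 (lmFit, eBayes with a trended prior) over 12 pools, without covariates, as the labels give no batch. Contrasts are two-sided and errors are SE with 4 pools a group. The fit was tested on simulated data with noise drawn independently for each probe set and pool. Differences shared by many probe sets of a pool, as seen here, were not simulated, so the fit was not tested under them.

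Names, chromosomes and gene order come from RefSeq GRCr8; 20347 of 31142 probe sets had 1 symbol. Lists used 1 probe set a gene (highest mean, RAE230A first) and no set test. Named were all called genes, the 10 greatest called probe sets without a symbol up to 4 members a list at unadjusted p under 0.01, and genes listed by name, such as Agt, Ace and Nr1d2; Slc12a3, Dbp, the endothelin genes and neighbours of Edn3 were added after their values were seen, as were the GC and TATA motifs. Members and lists were chosen with earlier results of these data known. A pool of 2 or 3 rats is 1 replicate, and precision is limited by how many pools there are. Figures used matplotlib 3.10.9 in Python 3.11.15.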

Additional observations from a re-analysis of the deposited data

Results flagged for a closer look

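In 7 of 104 groups of 4 pools, over the called probe sets that are named and fixed genes such as Ace and Agt, 1 pool stood far from the other 3, by Dixon's ratio of gap to range at its 95% critical value, which chance passes in about 1 of 20 groups. In 1392653_at these were S pool B, at 10.37 against 10.57 to 10.60 in the other S pools, and ET3x2 pool K, at 9.13 against 9.74 to 9.84. In Mef2a they were S pool A, at 9.50 against 9.20 to 9.23, and ET3x2 pool I, at 8.66 against 8.69 in the others, a gap of little size. In Klhl24 S pool B read 9.58 against 9.76 to 9.79. ET3x2 pool J stood toward S in S100pbp, at 8.02 against 7.68 to 7.69, and in Smim1, at 10.18 against 10.29 to 10.31.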

How the results depend on the processing

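The count of 75 called probe sets (14 higher, 61 lower) was 42 (8 and 34) with the S and ET3x2 pools alone, 419 (136 and 283) with array weights, 432 (141 and 291) with the actin 5' minus 3' covariate and 17 (7 and 10) without pools A, B and J. With no filter 9 were higher. Leaving out 1 pool gave 19 to 167 in all, 5 to 55 higher and 12 to 141 lower. The filter at the 50th percentile, quantile normalisation, a prior without trend and joint adjustment moved the total by less than 1.5 times. Ace (-0.027 to 0.067 on leaving out 1 pool) reversed with quantile normalisation (-0.004), array weights (-0.004) and without D (-0.027) or L (-0.007), and Agt (-0.248 to 0.094) without A, B and J (0.137), without A (0.094) or L (0.014). None of the 49 called probe sets that are named changed sign, which leaving out pools could not bring about, as their S and ET3x2 pools do not overlap. The causes were not tested. No paired analysis was possible because the strains share no pool letters. Dim probe sets, near the filter levels, limit the size of differences.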

Other observations

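An unadjusted p under 0.01 was reached by 3.34% of all genes (2.09% higher, 1.25% lower). Of the 19 cell cycle genes kept, 3 reached it, all higher. Over all 11218 genes 6934 were positive and 4284 negative, with a median of 0.03. Cell cycle genes had 16 of 19 positive, 0 called and a median of 0.11, with the mitotic kinase Cdk1 at 8.58, 8.35, 8.48 and 8.66 in S and 9.02, 8.83, 8.95 and 8.92 in ET3x2 (0.41, SE 0.090, adjusted p = 0.106). The cyclin Ccnb2 stood at 0.26 (adjusted p = 0.183) and the replication helicase subunit Mcm5 at 0.27 (0.201), both without overlap. The pools did not overlap for 4 of the 19 genes, where this held for 6.31% of all genes. The median was 0.083 without pool I and 0.141 without A, B and J.

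Matrix and fibrosis genes had 21 of 28 negative, against 4284 of 11218 genes, 0 called and a median of -0.11. At an unadjusted p under 0.01 there were 2 lower (1.25% of all genes) and 1 higher (2.09%). The collagen crosslinker Loxl2 was at -0.57 (adjusted p = 0.146) with all ET3x2 pools below all S pools, and Ccn2, a target of TGF-beta signalling, at -0.48 (0.223), while the protease inhibitor Timp1 was at 0.36 (0.264). The list mean was 0.140 in S pool A, 0.181 in B and 0.050 in J of ET3x2, which had the highest actin 5' minus 3' signal, and at most 0.023 elsewhere in S and ET3x2; the part of RNA length was not tested.

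Interferon-response genes had 15 of 21 negative, against 4284 of 11218 genes, and a median of -0.11. At an unadjusted p under 0.01 there was 1, lower (1.25% of all genes). Ifit2 read 8.77, 8.33, 8.53 and 9.34 in S and 8.16 to 8.29 in ET3x2 (-0.51, adjusted p = 0.287), with S pool D highest, and D also had the highest list mean, 0.377. Among single genes, prostaglandin D synthase, Ptgds, stood at 0.63 (adjusted p = 0.264), the peroxisomal isomerase Eci2 at 0.69 (0.212), the NADPH oxidase subunit Cyba at 0.33 (0.263) and the glycolytic gene Aldoa at 0.21 (0.205). Aldoa was 13.62 to 13.71 in S, 13.84 to 13.92 in ET3x2 and 13.28 to 13.47 in ET3x1.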
